A study of Mus musculus with 8 samples.

Results

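The comparison described here sets UV-treated mouse embryonic fibroblasts that carry deletions of both cryptochromes beside UV-treated fibroblasts that do not, on a background without p53 in both. Genes were taken from the authors' deposited tables, 1 per genotype, by joining the gene identifiers and keeping every gene that the authors' software marked as tested in both; 14933 of 39175 genes met that rule. The measured quantity was the ratio of the authors' FPKM (fragments per kilobase of transcript scaled to the fragments mapped, a level corrected for gene length) in UV-treated p53CryKO cells to that in UV-treated p53KO cells, given as a log2 value that is positive where the p53CryKO cells were higher.

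Both cultures came from C57BL/6J mice: the p53KO cells carry p53-/- and the p53CryKO cells p53-/-Cry1-/-Cry2-/-, so the loss of p53 is shared and the loss of Cry1 and Cry2 is what the labels say differs. The UV-treated groups received 40 J/m2 of 254 nm light from a germicidal lamp at 1 J/m2 per second and were harvested 16 h later, and each genotype also has an untreated group. Poly(A)-selected RNA was sequenced from 2 biological replicates in each of 4 groups. The tables hold 1 pooled FPKM per gene and group, made in a separate run for each genotype, so the ratios between genotypes are described without a test. Total read counts are not in these tables, so the depth behind each value is unknown. The labels do not say whether replicates came from separate animals or how many cell lines stand for each genotype; a difference caused by the cryptochrome deletions and one caused by another difference between the cultures therefore cannot be told apart.

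Cryptochromes are the repressor subunits of the mammalian circadian clock. In mouse cells the activators CLOCK and BMAL1 (encoded by Arntl) bind E-box sequences and switch on Per, Cry, Nr1d1, Nr1d2, Dbp and Tef, and the PER and CRY proteins then block the activators. Cryptochromes are also known to bear on the turnover of other proteins, among them the oncoprotein MYC, and on the cellular response to DNA damage.

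The targeted genes were read first. Cry1 stood at 3.85 and 4.55 FPKM in p53KO cells without and with UV and at 3.34 and 3.79 FPKM in the p53CryKO cells (chr10:85131700-85185064, minus strand, GRCm38). Cry2 stood at 2.44 and 0.488 FPKM in p53KO cells and at 4.54 and 1.10 FPKM in p53CryKO cells (chr2:92403646-92434043, minus strand). Trp53, which encodes p53, was listed at 94.96 FPKM in UV-treated p53KO and 105.7 FPKM in UV-treated p53CryKO cells, but the authors' software failed to test it in the latter, so it is not among the genes compared. Reads were therefore assigned to all 3 genes in cells labelled as lacking them, with Cry1 within 2-fold of the p53KO level and Cry2 above it. A gene-level FPKM does not show whether reads come from the deleted part of a gene, so these values do not check the genotypes, which are taken from the labels throughout.

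Fibroblast identity was checked with 12 markers. Of these, 10 reached 1 FPKM or more in both UV-treated groups, among them Vim, an intermediate filament protein, at 2502 FPKM in p53KO and 4558 FPKM in p53CryKO cells; Lum and Fap were near 0 in both. Of the 10 markers, 4 were 2-fold lower in UV-treated p53CryKO cells and none was higher, with a median log2 ratio of -0.69. Those 4 were Thy1, a surface glycoprotein, at 335 and 96.8 FPKM in UV-treated p53KO and p53CryKO cells, the growth factor receptors Pdgfra (5.66 and 1.27 FPKM) and Pdgfrb (11.1 and 4.52 FPKM), and the collagen gene Col1a2 (281 and 107 FPKM). The summed level of 6 epithelial markers was 0.371 FPKM in UV-treated p53KO cells and 20.1 FPKM in UV-treated p53CryKO cells, with 0 of 6 and 4 of 6 markers at 1 FPKM or more. The 4 were Cdh1, which encodes E-cadherin, at 0.0341 and 2.32 FPKM, and the keratins Krt8 at 0.114 and 5.76 FPKM, Krt14 at 0.0367 and 8.97 FPKM, and Krt18 at 0.0901 and 3.01 FPKM. Epcam and Krt5 were below 0.1 FPKM in both. Pluripotency markers summed to 0.178 and 0.230 FPKM and endothelial markers to 1.46 and 0.752 FPKM. In these bulk samples, a change in the number of cells of a type and a change in RNA per cell cannot be told apart.

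After requiring 1 FPKM or more in the higher UV-treated group and a value above 0 in the lower, 11455 genes were compared. A gene could thus enter through its level in 1 genotype alone. The median log2 ratio was -0.09, the middle 50 percent of genes lay between -0.51 and 0.36, and 5 percent lay below -1.39 and 5 percent above 1.27. A 2-fold or larger difference was seen for 887 genes that were higher in p53CryKO cells, 7.74 percent of those compared, and 1100 genes that were lower, 9.6 percent; the larger of these counts changes sides when the median gene is set to 0, with 1034 higher and 936 lower. Large differences were more common among low genes: 14.4 percent of 4071 genes at 1 to 5 FPKM were 2-fold lower, against 4.69 percent of 2301 genes at 50 FPKM or more.

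The replicate error of a ratio could only be bounded. The authors' test statistic implies a standard error for the UV response within each genotype, and the standard error of the ratio between the UV-treated groups can be no larger than the root of the summed squares of both, leaving out any difference in scaling between the tables. This bound had a median of 0.47 on the log2 scale and is called the error bound below. Of 1960 genes past 2-fold that had a bound, 1605 had a log2 ratio larger than it, and 1231 had a ratio more than 2 bounds from 0.

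Much of the difference between the genotypes was also seen without UV. Across 11383 genes that had a ratio in both states, the UV-treated and untreated log2 ratios correlated across genes with Pearson r = 0.82 and Spearman rho = 0.76; genes are not independent replicates, and each genotype's UV-treated and untreated values come from the same table. In untreated cells 663 genes (5.82 percent) were 2-fold higher and 761 (6.69 percent) lower in p53CryKO. Of the genes that were 2-fold higher with UV, 454 of 874 (51.9 percent) were also 2-fold higher untreated, which is 68.5 percent of the untreated list. Of those lower with UV, 572 of 1086 (52.7 percent) were also lower untreated, 75.2 percent of the untreated list. Another 408 higher and 505 lower genes passed 2-fold with UV and were within 2-fold untreated. Most genes past the cut-off leaned the same way in both states: of 1960 past 2-fold with UV, 93.3 percent had the same sign untreated. The ratio itself moved by 2-fold or more between untreated and UV-treated cells for 613 genes, up for 269 and down for 344. These shifts were not tested.

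**Figure D1:**
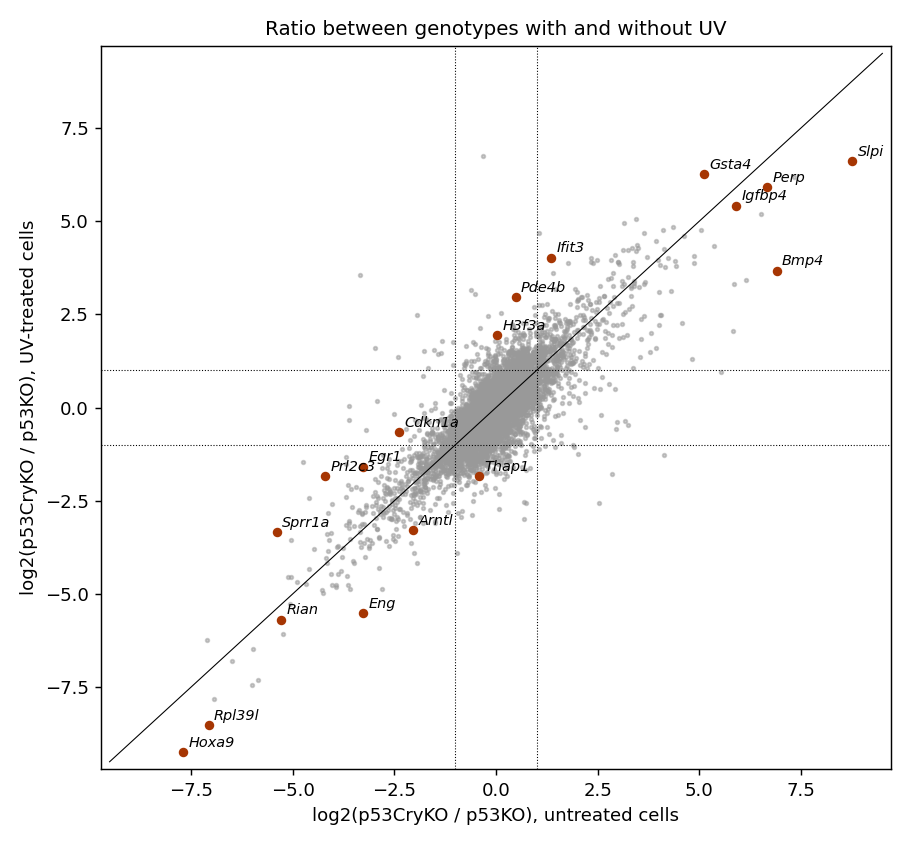
The log2 ratio of p53CryKO to p53KO in untreated cells (horizontal) and in UV-treated cells (vertical) for 11383 genes, 1 point per gene; dotted lines mark 2-fold, the solid line equal ratios, and named genes are in orange. The points follow the line of equal ratios (Pearson r = 0.82 across genes), with Pde4b, H3f3a and Ifit3 above it and Thap1 and Eng below.

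Some of the genes furthest apart between the UV-treated cultures were nearly absent from 1 genotype and plainly present in the other. Rpl39l, a paralogue of the ribosomal protein gene Rpl39 (chr16:10170226-10174911, plus strand), stood at 104 and 282 FPKM in p53KO cells without and with UV and at 0.777 and 0.766 FPKM in p53CryKO cells. Its log2 ratio with UV was -8.53 with an error bound of 0.66, a 369-fold difference between the UV-treated groups. Smoc2, a secreted calcium-binding matricellular protein (chr17:14279506-14404790, plus strand), stood at 86.2 and 151 FPKM in p53KO and at 0.965 and 1.36 FPKM in p53CryKO cells. For both genes the p53CryKO cells were low with and without UV, and for Smoc2 the level was higher after UV in both genotypes.

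Others among the 12 lowest ratios were Hoxa9, C1qtnf3, Rarres2, Gjb2, Rian, Eng, Necab2, Mfap4 and Slc1a6. Hoxa9, a homeobox transcription factor, had the lowest log2 ratio, -9.25, but its value in UV-treated p53CryKO cells was only 0.0102 FPKM and its error bound was 10.8, larger than the ratio. Eng, the endoglin coreceptor for TGF-beta family ligands, stood at 21.9 and 30.1 FPKM in p53KO and at 2.27 and 0.657 FPKM in p53CryKO cells. It was higher after UV in p53KO cells and lower after UV in p53CryKO cells, so its log2 ratio was -3.27 untreated and -5.52 with UV; 6 gene models share its locus, which leaves the split of reads among them uncertain.

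Among the 12 highest ratios, Gsta4 led the genes with a small error. Gsta4, a glutathione S-transferase that conjugates the lipid peroxidation product 4-hydroxynonenal (chr9:78182774-78209349, plus strand), stood at 1.30 and 0.895 FPKM in p53KO and at 44.7 and 68.5 FPKM in p53CryKO cells. The log2 ratio with UV was 6.26 with an error bound of 0.56. Igfbp4, a binding protein that holds insulin-like growth factors (chr11:99041244-99054392, plus strand), stood at 3.03 and 7.55 FPKM against 181 and 322 FPKM. Lama5, the laminin alpha 5 chain of basement membranes, stood at 0.449 and 2.54 FPKM against 41.3 and 92.3 FPKM, and Crip1, a LIM-domain protein, at 6.47 and 10.3 FPKM against 99.8 and 229 FPKM. Each of these was far higher in p53CryKO cells before and after UV.

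Slpi, Nkain4, Perp, Serpinb6b, Plscr2, Serpinb9, Gbp2 and Scx completed the 12 highest. Slpi, a secreted protease inhibitor, had a log2 ratio of 6.60, the largest after predicted gene models were left out (the largest of all was 6.74, for the model Gm21972), from 0.168 FPKM in UV-treated p53KO to 16.3 FPKM in UV-treated p53CryKO cells, with an error bound of 9.61. Serpinb9, an inhibitor of granzyme B, and its neighbour Serpinb6b stood at 23.4 and 22.8 FPKM in UV-treated p53CryKO cells and below 1 FPKM in UV-treated p53KO cells. Both belong to a cluster of closely related genes on chromosome 13, so reads may be split among copies.

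**Figure D2:**
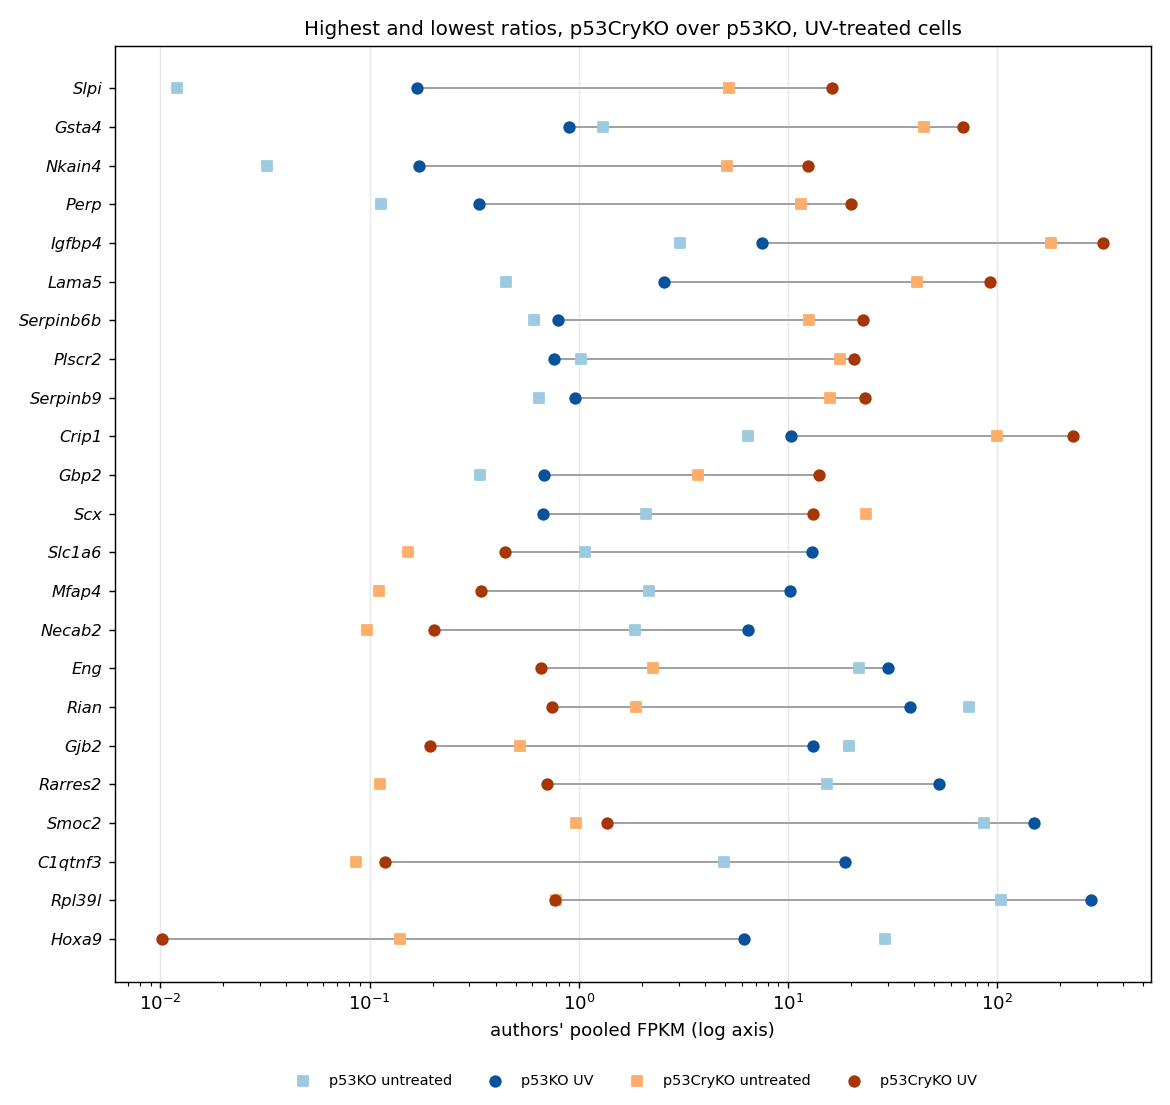
The authors' pooled FPKM (log axis) of the 12 highest ratios (top) and 11 of the 12 lowest (bottom) in each of the 4 groups; lines join the UV-treated groups, and squares are untreated. In every gene drawn both p53KO points lie on the same side of both p53CryKO points, as for Gsta4 at 0.895 and 68.5 FPKM with UV.

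Clock genes were split between higher and lower values. Of 10 genes of the repressor limb and its outputs that were compared, 5 were 2-fold higher in UV-treated p53CryKO cells (background 7.74 percent) and 1 was lower, with a median log2 ratio of 0.59. All 6 past 2-fold had a ratio larger than their error bound, but only 3 lay more than 2 bounds from 0 (50 percent). Of all genes past 2-fold that had a bound, 62.8 percent did. Without UV, 1 was higher and 1 lower and the median was 0.28. The 10 include Cry1 and Cry2, which the labels give as deleted and of which Cry2 is among the 5; without them 4 of 8 were higher and 1 lower, and the median with UV was again 0.59. Tef, a PAR-bZIP transcription factor driven by the clock, stood at 14.0 and 2.35 FPKM in p53KO and at 22.2 and 8.47 FPKM in p53CryKO cells, so it was lower after UV in both but less so in p53CryKO. Its log2 ratio with UV was 1.85 with an error bound of 0.74. Bhlhe40, which encodes the repressor DEC1, had 3.60 FPKM in UV-treated p53KO and 7.71 FPKM in UV-treated p53CryKO cells, and Nr1d2, the nuclear receptor REV-ERB beta, 2.22 and 4.63 FPKM.

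Nr1d1, which encodes REV-ERB alpha, went the other way. It stood at 17.3 and 16.4 FPKM in p53KO and at 7.21 and 3.60 FPKM in p53CryKO cells, a log2 ratio of -2.18 with an error bound of 0.66. Dbp, a PAR-bZIP factor, stood at 2.38 and 2.59 FPKM in the UV-treated groups and Per1, a clock repressor, at 2.48 and 1.95 FPKM, both within 2-fold. Per2, the partner repressor of the cryptochromes, was below the level needed for comparison, at 0.844 and 0.118 FPKM in p53KO and 4.45 and 0.685 FPKM in p53CryKO cells.

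The activator limb was lower. Of 3 members compared, 2 were 2-fold lower with UV (background 9.6 percent), with a median log2 ratio of -3.30. Both of the 2 had a ratio larger than their error bound, and 1 lay more than 2 bounds from 0. Arntl, which encodes BMAL1, stood at 3.63 and 2.83 FPKM in p53KO and at 0.883 and 0.289 FPKM in p53CryKO cells. Its log2 ratio was -2.04 untreated and -3.30 with UV, with an error bound of 0.52. Rora, a nuclear receptor that activates Arntl in mouse cells, stood at 0.428 and 1.85 FPKM against 0.0697 and 0.141 FPKM. Clock was within 2-fold, at 2.45 FPKM and 1.67 FPKM in the UV-treated groups. None of 11 genes for kinases, ligases and other modifiers of the clock passed 2-fold; their median log2 ratio was -0.23.

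To show an E-box beside these levels, RefSeq promoter windows of 250 bases before to 50 bases after each transcription start (GRCm38.p6) were searched on both strands for CACGTG. Of 8 repressor-limb genes with a window, 3 held it (37.5 percent), against 12.2 percent of 7730 genes compared that matched a window and 7.15 percent of all 32851 windows; Tef, Cry1 and Per1 were those 3, and none of 3 activator genes held it. The 250 bases upstream of a Tef start (chr15:81802423-81802672, plus strand) are shown because Tef had the highest ratio of these clock genes; capitals mark the E-box, whose first base lies 127 bases before the start.
Tef: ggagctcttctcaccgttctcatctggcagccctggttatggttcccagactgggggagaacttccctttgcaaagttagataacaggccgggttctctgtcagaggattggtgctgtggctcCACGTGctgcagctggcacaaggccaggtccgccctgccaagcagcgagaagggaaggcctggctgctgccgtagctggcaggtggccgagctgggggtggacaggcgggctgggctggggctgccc
A match is a description of letters in this window. Among genes 2-fold higher in UV-treated p53CryKO cells 11.2 percent of 492 held an E-box, and among those lower 10.2 percent of 735.

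Interferon-stimulated genes, the antiviral effectors and sensors that interferon signalling switches on, were mostly higher in p53CryKO cells. Of 32 compared, 20 were 2-fold higher in UV-treated p53CryKO cells and none was lower (background 7.74 and 9.6 percent), with a median log2 ratio of 1.45; 23 were higher in untreated cells, where the median was 1.58. All 20 had a ratio larger than their error bound, and 17 lay more than 2 bounds from 0. Of all genes past 2-fold that had a bound, 81.9 percent passed it and 62.8 percent passed 2 bounds. Gbp2, an interferon-induced GTPase, stood at 0.336 and 0.681 FPKM in p53KO and at 3.73 and 14.1 FPKM in p53CryKO cells. Ifit3, an antiviral tetratricopeptide protein, stood at 0.767 and 0.514 FPKM against 1.97 and 8.34 FPKM, and Ifit1, which binds foreign RNA caps, at 0.605 and 0.656 FPKM against 4.81 and 9.74 FPKM. Gbp2, Ifit3 and Ifit1 reached the minimum of 1 FPKM with UV only in p53CryKO cells, so their entry into the comparison depended on that group. How many of the 20 entered this way is not given here. In Ifit3 and Ifit1 the UV-treated p53KO cells were near the untreated level while the UV-treated p53CryKO cells were above theirs. Their relative Ifit2 was level between the genotypes, with log2 ratios of 0.03 with UV and 0.07 untreated.

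Other members were higher after UV in both genotypes. Isg15, a ubiquitin-like modifier, stood at 5.62 and 19.9 FPKM in p53KO and at 30.6 and 99.0 FPKM in p53CryKO cells. Xaf1, a pro-apoptotic partner of XIAP, stood at 1.82 and 15.7 FPKM against 15.9 and 58.2 FPKM, and Zbp1, a sensor of Z-form nucleic acids, at 0.282 and 0.952 FPKM against 2.08 and 11.5 FPKM. Zbp1, too, reached the minimum of 1 FPKM with UV only in p53CryKO cells. For Xaf1 the untreated p53CryKO level was about that of the UV-treated p53KO cells. Oas1a, a sensor of double-stranded RNA, had a smaller gap with UV (log2 ratio 1.49) than without (2.61). The Ifit, Gbp and Oas families have closely similar members, so reads may be split among copies. Leukocyte markers, a list of 9 genes, summed to 14.2 and 13.6 FPKM in the UV-treated groups, most of it Cd68, and the defining marker Ptprc was below 0.01 FPKM in both.

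Regulators and neighbouring pathways were mixed. Each count of 2-fold higher and lower genes in this paragraph has a background of 7.74 and 9.6 percent. Ifnb1, which encodes interferon beta, was listed at 0 in 3 groups and at 0.415 FPKM in UV-treated p53CryKO cells, and was tested by the authors in p53CryKO alone. Among 18 interferon regulators compared, 3 were higher and 2 lower and the median log2 ratio was -0.14: Irf7, the factor that amplifies interferon genes, stood at 0.888 and 9.10 FPKM in p53KO and 3.07 and 18.3 FPKM in p53CryKO cells, and Irf5 at 13.7 and 3.29 FPKM in the UV-treated groups. Of 19 genes of MHC class I presentation, 5 were higher and 1 lower, and the median log2 ratio was 0.14, with 11 genes above 0 and 8 below. Psme1 and Psme2, subunits of the proteasome activator PA28, stood at 73.3 and 134 FPKM in UV-treated p53KO against 195 and 352 FPKM in UV-treated p53CryKO cells. H2-T23 was also higher (log2 ratio 1.49), while H2-K1, H2-D1 and B2m had log2 ratios of -0.14, -0.41 and -0.16. Of 28 cytokine and NF-kappaB genes, 7 were higher and 5 lower; the median log2 ratio was -0.06 and changed sign with the scaling, at 0.02 when the median gene was set to 0. Ccl2, a monocyte chemokine, stood at 39.8 and 25.3 FPKM against 78.4 and 123 FPKM, so its level after UV was lower than untreated in p53KO and higher than untreated in p53CryKO cells.

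The promoters of the interferon-stimulated genes were searched in the same windows on both strands for the core of the interferon-stimulated response element, written here as TTTC, any 2 bases, TTTC (GAAA, any 2 bases, GAAA on the other strand), with overlapping matches counted. Of 23 list members with a window 13 held it (56.5 percent), against 3.70 percent of 7730 genes compared and 3.44 percent of all windows. It was held by 9 of 16 members that were 2-fold higher with UV and by 4 of 7 that were not, so within the list the element did not separate them. The 250 bases upstream of the start are shown for 4 members of high ratio, with the matches in capitals: Gbp2 (chr3:142620413-142620662, plus strand), Ifit3 (chr19:34583279-34583528, plus strand), Ifit1 (chr19:34640639-34640888, plus strand) and Isg15 (chr4:156200819-156201068, minus strand).
Gbp2: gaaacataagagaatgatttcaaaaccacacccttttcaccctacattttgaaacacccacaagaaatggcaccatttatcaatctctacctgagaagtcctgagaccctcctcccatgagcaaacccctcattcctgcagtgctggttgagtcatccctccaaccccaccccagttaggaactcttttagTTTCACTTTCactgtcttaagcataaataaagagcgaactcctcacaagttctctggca
Ifit3: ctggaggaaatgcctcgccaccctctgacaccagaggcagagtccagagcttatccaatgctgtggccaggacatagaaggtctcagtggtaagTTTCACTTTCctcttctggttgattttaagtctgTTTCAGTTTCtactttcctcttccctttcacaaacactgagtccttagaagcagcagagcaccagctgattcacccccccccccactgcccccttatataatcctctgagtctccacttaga
Ifit1: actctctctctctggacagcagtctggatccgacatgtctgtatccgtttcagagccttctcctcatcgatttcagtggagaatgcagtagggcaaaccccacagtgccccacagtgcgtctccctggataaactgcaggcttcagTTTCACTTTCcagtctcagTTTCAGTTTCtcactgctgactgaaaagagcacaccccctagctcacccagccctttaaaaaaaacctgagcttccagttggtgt
Isg15: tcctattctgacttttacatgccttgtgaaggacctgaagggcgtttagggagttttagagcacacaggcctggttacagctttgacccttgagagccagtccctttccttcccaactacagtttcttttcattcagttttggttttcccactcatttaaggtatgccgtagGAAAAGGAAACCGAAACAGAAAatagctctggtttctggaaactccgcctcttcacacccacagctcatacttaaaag
Gbp2 held 1 match, Ifit3 and Ifit1 held 2 each, and Isg15 held 3 that overlap on the opposite strand. Over all genes 2-fold higher with UV, 7.93 percent of 492 held the element, and over those lower, 4.49 percent of 735.

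**Figure D3:**
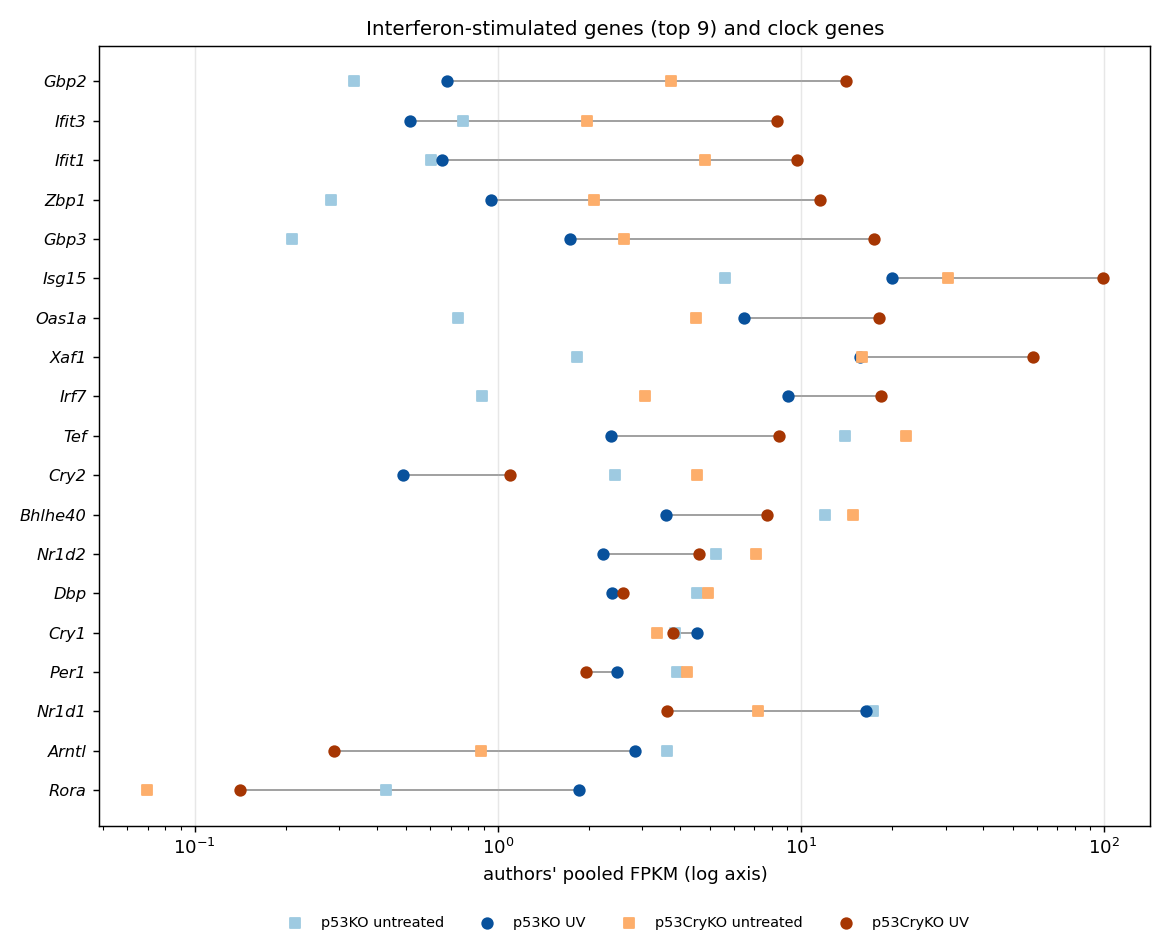
The authors' pooled FPKM (log axis) of 9 interferon-related genes (top) and 10 clock genes (bottom) in the 4 groups, with lines joining the UV-treated groups. The interferon-related genes are higher in UV-treated p53CryKO cells, from Gbp2 at 0.681 and 14.1 FPKM to Irf7 at 9.10 and 18.3 FPKM, while Nr1d1, Arntl and Rora are lower.

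Imprinted genes, which are expressed from 1 parental allele and many of which regulate fetal growth, were lower in p53CryKO cells. Of 19 compared, 13 were 2-fold lower with UV (background 9.6 percent) and none was higher, and the same counts were found without UV (background 6.69 percent lower); the median log2 ratio was -2.32 with UV and -2.09 without. Rian and Meg3, long noncoding RNAs of the Dlk1-Dio3 cluster on chromosome 12, stood at 38.5 and 69.3 FPKM in UV-treated p53KO and at 0.746 and 2.95 FPKM in UV-treated p53CryKO cells. Grb10, an adaptor that restrains insulin and growth factor signalling, stood at 85.2 and 66.8 FPKM in p53KO and at 11.3 and 6.96 FPKM in p53CryKO cells. Slc38a4, an amino acid transporter, stood at 22.1 and 1.23 FPKM with UV, and Igf2, a fetal growth factor, at 5.40 and 0.912 FPKM. The lower genes lie in several imprinted clusters, while Impact and Zrsr1 had log2 ratios of 0.31 and 0.10.

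Homeobox genes of the Hox clusters, which give cells their position along the body axis, were mostly lower as well. Of 19 compared, 11 were 2-fold lower and 1 higher (background 9.6 and 7.74 percent), with a median log2 ratio of -1.32 with UV and -0.81 without. Of the 12 past 2-fold, 10 had a ratio larger than their error bound and 7 lay more than 2 bounds from 0 (83.3 and 58.3 percent). The shares over all genes past 2-fold that had a bound were 81.9 and 62.8 percent. Some ratios, as for Hoxa10, rest on a value near 0 in UV-treated p53CryKO cells. Hoxa10 stood at 38.4 and 4.57 FPKM in p53KO and at 0.311 and 0.0201 FPKM in p53CryKO cells, and Hoxb9 at 62.4 and 38.6 FPKM against 12.4 and 9.88 FPKM. Hoxc8 was the member that was higher, at 2.26 and 7.26 FPKM in the UV-treated groups. Hoxa11 was listed at 0.994 FPKM in UV-treated p53KO and at 0 in UV-treated p53CryKO cells and was not tested by the authors in the latter.

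Other patterning factors had the same direction: 5 of 17 were 2-fold lower (background 9.6 percent) and none higher, with a median log2 ratio of -0.64. Of the 5, 4 had a ratio larger than their error bound and 2 lay more than 2 bounds from 0. The Zic1 ratio rests on a value near 0 in UV-treated p53CryKO cells. Prrx1, a limb mesenchyme homeobox factor, stood at 27.9 and 9.86 FPKM with UV, and Zic1, a zinc finger factor of neural and skeletal development, at 2.64 and 0.0151 FPKM. Gata4, a cardiac and endodermal factor, went the opposite way, at 0.0601 and 6.25 FPKM, but was not tested by the authors in p53KO cells.

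Keratins and other epithelial genes were 2-fold higher in UV-treated p53CryKO cells in 6 of 9 cases and lower in 1. The background was 7.74 and 9.6 percent, and the median log2 ratio of the list was 1.59. Untreated, 6 of 8 were higher and 1 lower (background 5.82 and 6.69 percent), with a median of 2.24. Krt19, a keratin of simple epithelia, stood at 62.7 and 123 FPKM in p53KO and at 410 and 605 FPKM in p53CryKO cells. Perp, a desmosome protein and p53 target, stood at 0.113 and 0.334 FPKM against 11.5 and 20.1 FPKM. It reached the minimum of 1 FPKM only in p53CryKO cells. Krt14 and Krt8, markers of basal and simple epithelia, were tested by the authors in p53CryKO alone and stood at 0.0367 and 0.114 FPKM in UV-treated p53KO against 8.97 and 5.76 FPKM. The exception was Sprr1a, a cornified envelope precursor that is also induced in stressed cells, with 199 and 516 FPKM in p53KO and 4.74 and 50.7 FPKM in p53CryKO cells. The epithelial marker sum given above includes Krt14 and Krt8, so it is not a separate observation. Its part in these differences was not tested.

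Matrix genes make up much of what a fibroblast secretes. Of 29 proteoglycans and matricellular proteins, 14 were 2-fold lower and 1 higher (background 9.6 and 7.74 percent), with a median log2 ratio of -0.94. Postn, periostin, stood at 298 and 1261 FPKM in p53KO and at 63.4 and 253 FPKM in p53CryKO cells. Thbs2, thrombospondin 2, stood at 279 and 355 FPKM against 23.1 and 30.8 FPKM, and Fmod, fibromodulin, at 9.10 and 13.8 FPKM against 1.10 and 1.11 FPKM. Postn was higher after UV in each genotype, and its log2 ratio was nearly the same without UV (-2.23) and with it (-2.32). Among 19 collagens 6 were lower and 1 higher, with Col1a2 at 281 and 107 FPKM in the UV-treated groups and Col12a1 at 106 and 30.4 FPKM. Among 17 matrix proteases and inhibitors 4 were lower and 1 higher, with Mmp9, a gelatinase, at 9.72 and 1.13 FPKM in the UV-treated groups.

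Of 33 growth factors, their receptors and binding proteins, 15 were 2-fold lower and 3 higher (background 9.6 and 7.74 percent), with a median log2 ratio of -0.89. Igfbp2 stood at 3.29 and 24.4 FPKM in p53KO and at 0.777 and 1.98 FPKM in p53CryKO cells, whereas Igfbp4, described above, was higher. Pdgfra, a receptor for platelet-derived growth factor and a fibroblast marker, stood at 17.7 and 5.66 FPKM against 3.26 and 1.27 FPKM. Vegfa, the vascular growth factor, stood at 52.3 and 30.6 FPKM against 15.7 and 10.1 FPKM. In TGF-beta and BMP signalling 7 of 30 genes were lower and 2 higher, and in Wnt signalling 5 of 21 were lower and 2 higher, the shares of higher genes being near the background. Bmp4, a ligand, was one of the higher genes, at 0.0956 and 0.202 FPKM against 11.4 and 2.57 FPKM.

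**Figure D4:**
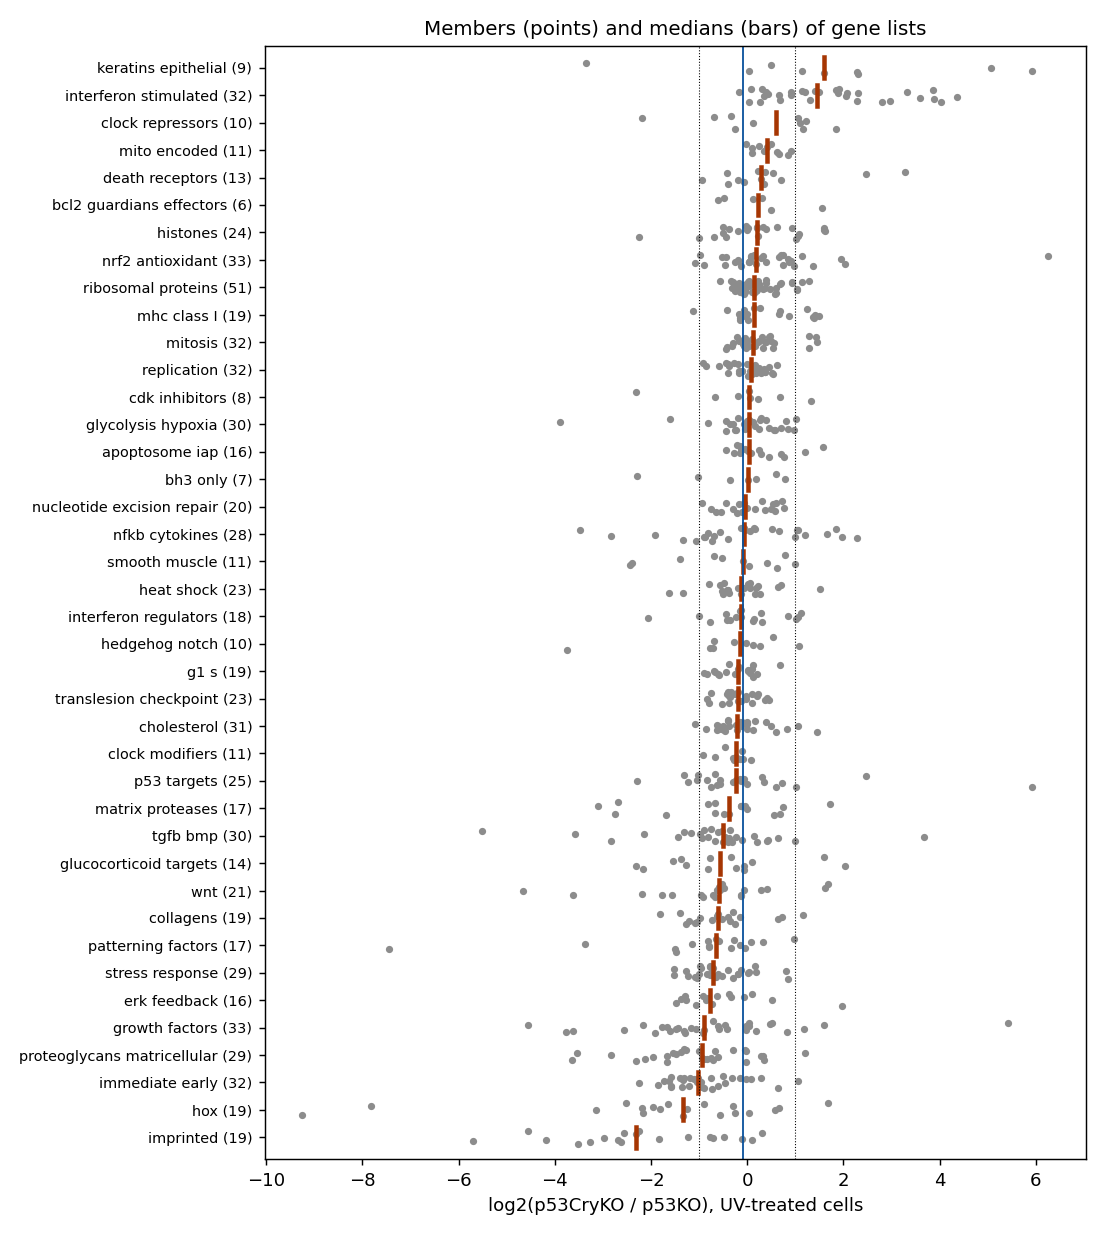
The log2 ratio of p53CryKO to p53KO in UV-treated cells for the members (gray points) of each list with 5 or more genes compared, whose number is in parentheses; orange bars are medians, the blue line is the median of all genes and dotted lines mark 2-fold. Imprinted genes have the lowest median (-2.32), and the keratin and interferon-stimulated lists the highest (1.59 and 1.45).

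Immediate-early genes, many of them transcription factors that growth and stress signals switch on within minutes, were often lower in UV-treated p53CryKO cells. Of 32 compared, 17 were 2-fold lower and 1 higher, with a median log2 ratio of -1.02, where 9.6 percent of all genes were lower. Untreated, 13 were lower and the median was -0.63, where 6.69 percent of all genes were lower; the difference between the states was not tested. All 18 had a ratio more than 2 error bounds from 0, as did 62.8 percent of all genes past 2-fold that had a bound. Jun, an AP-1 subunit, stood at 22.7 and 64.9 FPKM in p53KO and at 18.6 and 26.3 FPKM in p53CryKO cells, so the genotypes were close untreated and apart after UV. Atf3, a stress-induced repressor, stood at 2.03 and 20.8 FPKM against 2.77 and 9.10 FPKM, and Myc at 85.7 and 49.9 FPKM against 88.3 and 24.4 FPKM. For Myc the untreated log2 ratio was 0.04 and the UV-treated ratio -1.03, with an error bound of 0.42.

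Egr1, a zinc finger factor, followed another course. It stood at 37.1 and 98.0 FPKM in p53KO and at 3.83 and 32.6 FPKM in p53CryKO cells, so the gap was wider untreated (log2 ratio -3.27) than with UV (-1.59). Junb, an AP-1 subunit, stood at 72.9 and 225 FPKM against 27.3 and 62.5 FPKM. Klf4, a Kruppel-like factor, was the member that was higher, at 1.24 and 3.28 FPKM against 12.8 and 6.78 FPKM.

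Feedback inhibitors of ERK signalling passed 2-fold after UV in 6 of 16 cases, 5 lower and 1 higher (background 9.6 and 7.74 percent). Their median log2 ratio was -0.76 with UV and -0.21 untreated. Dusp6, a phosphatase of ERK, stood at 20.4 and 15.9 FPKM in p53KO and at 25.04 and 6.51 FPKM in p53CryKO cells. Rgs16, an inhibitor of G protein signalling, stood at 13.8 and 16.9 FPKM against 16.0 and 6.51 FPKM. Both were slightly higher in untreated p53CryKO cells and lower in UV-treated ones. Dusp4, a nuclear phosphatase of the same family, was higher in p53CryKO cells in both states, at 2.57 and 10.1 FPKM with UV.

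Genes of the integrated stress and unfolded protein responses were 2-fold lower in 6 of 29 cases (background 9.6 percent) and higher in none, with a median log2 ratio of -0.71 with UV and -0.29 without. Ppp1r15a, which encodes the phosphatase subunit GADD34, stood at 17.8 and 122 FPKM in p53KO and at 13.4 and 50.9 FPKM in p53CryKO cells; its log2 ratio of -1.26 was smaller than its error bound of 1.58. Trib3, a pseudokinase induced by ATF4, stood at 8.52 and 19.3 FPKM against 4.59 and 6.75 FPKM. Xbp1, a factor of the unfolded protein response, stood at 22.6 and 9.60 FPKM in the UV-treated groups.

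Genes known as p53 targets were read in cells that lack p53 in both genotypes. Of 25 compared, 3 were 2-fold higher and 5 lower (background 7.74 and 9.6 percent), with a median log2 ratio of -0.23. Pmaip1, which encodes the BH3-only killer NOXA, stood at 1.43 and 6.43 FPKM in p53KO and at 0.443 and 1.32 FPKM in p53CryKO cells. Gadd45a, a stress sensor, stood at 15.3 and 128 FPKM against 9.20 and 51.2 FPKM. Cdkn1a, which encodes the cell cycle inhibitor p21, stood at 4.21 and 6.67 FPKM against 0.809 and 4.23 FPKM, so a wide gap untreated (log2 ratio -2.38) was within 2-fold after UV (-0.66). Fas, a death receptor, was higher in UV-treated p53CryKO cells, at 0.212 and 1.18 FPKM. In a separate list of 13 death receptor and proximal signalling genes, 2 were 2-fold higher, 0 lower and 11 within 2-fold. The background was the same, and the median log2 ratio was 0.30. Those 2 were Fas and Tnfrsf21, a receptor with a death domain, at 0.186 and 1.80 FPKM. Both reached the minimum of 1 FPKM with UV only in p53CryKO cells.

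Genes of the mitochondrial pathway of cell death passed 2-fold about as often as all genes, of which 17.3 percent did. Of 6 BCL2-family guardians and effectors 1 was higher and none lower. Bak1, an effector that opens the outer mitochondrial membrane, stood at 45.6 and 11.3 FPKM in p53KO and at 70.8 and 33.3 FPKM in p53CryKO cells, while its relative Bax was within 2-fold at 143 and 179 FPKM with UV. Of 7 BH3-only genes 2 were lower and none higher. Of 16 genes of the apoptosome, caspases and their inhibitors 2 were higher and none lower. The median log2 ratio of the guardians and effectors was 0.22 and kept its sign under the scalings. Those of the BH3-only and apoptosome lists were 0.01 and 0.04 and changed sign with the scaling, at -0.08 and -0.05 when the summed FPKM was set equal.

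Replication and DNA repair genes were close between the genotypes. None of 32 replication genes, 19 genes of the G1 to S transition, 20 nucleotide excision repair genes and 23 translesion and checkpoint genes passed 2-fold with UV, where the background was 17.3 percent in either direction. The median log2 ratios were 0.07, -0.18, -0.04 and -0.19, and those of the replication and excision repair lists changed sign with the scaling. Xpc, which recognises UV lesions across the genome, stood at 3.40 and 3.38 FPKM in the UV-treated groups, and Ddb1, of the UV-damage binding complex, at 380 and 352 FPKM. Polh, the polymerase that copies past UV lesions, stood at 2.82 and 2.21 FPKM. These levels say nothing of repair itself, which was not measured.

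Of 32 mitotic genes, 4 were higher and none lower with UV (background 7.74 and 9.6 percent), and none passed 2-fold untreated (background 5.82 and 6.69 percent). The ratio of 3 of the 4 was larger than its error bound; that of Cdc25b was not. Cdk1, the mitotic kinase, stood at 275 and 25.4 FPKM in p53KO and at 273 and 61.6 FPKM in p53CryKO cells, and Top2a, the topoisomerase that untangles chromosomes, at 69.2 and 24.2 FPKM against 93.8 and 66.6 FPKM. Both were lower after UV in each genotype and less so in p53CryKO cells. Cdk4 was level, at 1818 and 1833 FPKM with UV.

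Medians of the metabolic and housekeeping lists were small. Of 33 genes in a list of NRF2 and antioxidant genes, 5 were higher and 1 lower (background 7.74 and 9.6 percent), with a median log2 ratio of 0.18. Gsta4 was among the higher, as was Mt2, a metallothionein, at 72.6 and 296 FPKM with UV. The lower gene was Hmox1, with a log2 ratio of -1.09, while Nqo1 was level at 0.04 and Txnrd1 had -0.97. Of 51 ribosomal protein genes 4 were higher, close to the background of 7.74 percent, and none lower, with a median log2 ratio of 0.15; many have processed pseudogenes that can share reads. The 23 heat shock, 31 cholesterol and 30 glycolysis and hypoxia genes had medians of -0.13, -0.22 and 0.05, the last of which changed sign with the scaling. Adm, adrenomedullin, stood out in the hypoxia list at 5.71 and 0.384 FPKM with UV.

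Some genes differed with UV but hardly without it. Of 5088 genes within 1.5-fold between the untreated groups and at 5 FPKM or more in the higher UV-treated group, 87 were 2-fold higher and 87 lower in UV-treated p53CryKO cells; the 8 largest in each direction were singled out after their values were seen. Pde4b, a cyclic AMP phosphodiesterase, stood at 3.23 and 1.07 FPKM in p53KO and at 4.52 and 8.26 FPKM in p53CryKO cells. H3f3a, which encodes histone H3.3 and has related copies, stood at 222 and 54.5 FPKM against 226 and 210 FPKM, so the UV-treated p53CryKO cells kept the untreated level. Fscn1, an actin-bundling protein, stood at 279 and 77.7 FPKM against 370 and 240 FPKM. Chchd2, a mitochondrial protein, stood at 254 and 151 FPKM against 262 and 477 FPKM. Ubac1, Morn2, Rpl22l1 and Laptm4b completed the higher genes.

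On the lower side, Thap1, a zinc finger factor, stood at 12.7 and 722 FPKM in p53KO and at 9.52 and 202 FPKM in p53CryKO cells. Arl5c, a small GTPase, stood at 9.87 and 324 FPKM against 7.72 and 104 FPKM, and Tob1, an antiproliferative adaptor, at 6.98 and 25.8 FPKM against 5.29 and 7.74 FPKM. All 3 were higher after UV in both genotypes, and by less in p53CryKO cells. Gys1, muscle glycogen synthase, had 25.1 and 7.59 FPKM in the UV-treated groups, and Alox8, Fam220a and Rbm15b were also in this set.

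Ratios were also uneven along the genome. The median log2 ratio in UV-treated cells ran, leaving out the mitochondrial genome, from -0.42 on chromosome 16 and -0.41 on chromosome 8 to 0.22 on chromosome 14 and 0.27 on chromosome 2, where the median of all genes was -0.09. On chromosome 16, 17.3 percent of 342 genes were 2-fold lower and 4.68 percent higher; on chromosome 2, 5.34 percent of 955 were lower and 12.5 percent higher. Chromosome medians in untreated cells were nearly the same, at -0.42, -0.39, 0.36 and 0.26 for those 4 chromosomes. The UV-treated and untreated medians correlated with r = 0.98 over 20 chromosomes, a description of cultures that share each table's scaling. The sign of the median did not change with the scaling for these 4 chromosomes, while it did for 7 others whose medians were close to 0.

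In windows of 10 Mb with 10 or more genes, 250 in all, the medians in UV-treated and untreated cells correlated with r = 0.90. The highest was at 150 to 160 Mb of chromosome 3, with a median of 0.84 over 21 genes. Next was 100 to 110 Mb of chromosome 4, with 0.68 over 55 genes. Of those 55, 18 were 2-fold higher, where 7.74 percent of all genes were. The lowest was at 50 to 60 Mb of chromosome 16, with -0.68 over 27 genes. Within 5 Mb of Cry1, 107 genes had a median of -0.36, near the -0.32 of all of chromosome 10. Of them 0 were 2-fold higher and 7 lower, where 3.63 and 13.4 percent of chromosome 10 genes were. Over all genes the shares were 7.74 and 9.6 percent. Within 5 Mb of Cry2, 44 genes had a median of 0.47 against 0.27 for chromosome 2. Of them 3 were higher and 1 lower, where 12.5 and 5.34 percent of chromosome 2 genes were. Within 5 Mb of Trp53, 100 genes had a median of -0.35 against -0.27 for chromosome 11. Of them 3 were higher and 15 lower, where 5.68 and 12.2 percent of chromosome 11 genes were. A difference in chromosome number between the cultures was not measured.

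**Figure D5:**
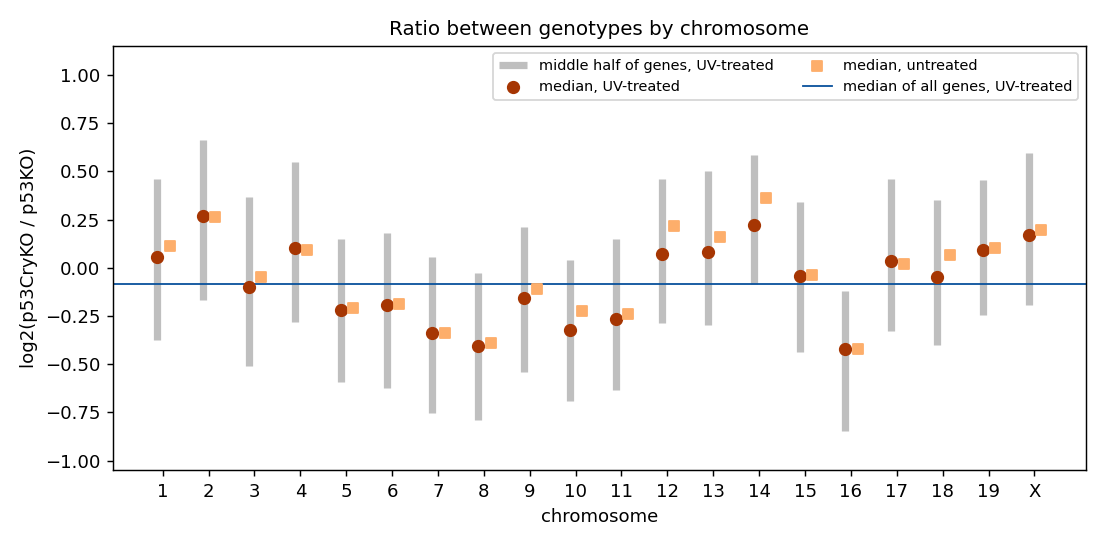
The median log2 ratio of p53CryKO to p53KO on each chromosome in UV-treated (circles) and untreated (squares) cells; gray bars span the middle 50 percent of genes with UV, and the blue line is the median of all genes. Of the 20 nuclear chromosomes drawn, 16 is lowest (-0.42) and 2 highest (0.27), and the untreated medians follow the UV-treated ones.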

How the data were processed

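Poly(A) RNA of 8 samples in 4 groups was sequenced as paired ends from TruSeq libraries, per the labels' protocols. Per the submitters' processing notes, GRCm38 was the build and the tools were STAR 2.5.2, Trimmomatic 0.35, FastQC 0.11.5, Cuffdiff and Cufflinks; no options or annotation are given in the sources used here. A Cuffdiff table was deposited by the authors for each genotype, with an FPKM value per gene and group pooled over 2 replicates, a test statistic (a signed score) and the q-value and p-value of the UV response, per the file headers. Each table was normalized in its own run, so ratios between tables can hold a difference in scaling; no replicate values, and so no SD or n of replicates, stand beside an FPKM.

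The log2 ratio was computed from the deposited FPKM without a pseudocount for genes with status OK in both tables. Of 14933 such genes, 3393 lay below 1 FPKM in both UV-treated groups, 17 were at 0 in both and 68 in 1 of them; 11455 were left. The test statistic was read as the fold change over its standard error. Named genes were the 12 highest and 12 lowest ratios at 5 FPKM or more, up to 4 members of each list past 2-fold (otherwise the 2 of highest FPKM), and fixed clock, p53 and death genes; others are named as further members of lists or as singled out after their values were seen. The genes, lists and markers were chosen with earlier results of these data known. Gene positions are from GENCODE M21 and promoter windows from RefSeq, which matched 7730 of the genes compared. The ratio and the length correction were tested on simulated data. Python 3.11.15, numpy 2.4.6, pandas 2.3.3 and matplotlib 3.10.9 were used. Alternatives were 3 scalings, other FPKM minimums, a pseudocount of 1, fold thresholds of 1.5 and 4, genes above 0 in all 4 groups, and removal of a running median over gene length. Some named genes are not reported here.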

Additional observations from a re-analysis of the deposited data

Results flagged for a closer look

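In 21 genes, 12 higher and 9 lower with UV, the p53CryKO cells were 2-fold or more higher with UV and 2-fold or more lower without it, or the reverse, with 1 pooled value per group; the difference was not tested. The 7 of them that are not predicted models, small RNAs or clone names are given here. Agt, angiotensinogen, had a log2 ratio of 1.75 with UV and -1.07 untreated, from 1.22 and 0.580 FPKM in p53KO cells without and with UV and 0.583 and 1.96 FPKM in p53CryKO cells. Itgb6, an integrin beta subunit, had 1.53 with UV and -1.78 untreated, with an error bound of 1.87. The noncoding locus adapt33_4 had 1.597 with UV and -2.97 untreated, with an error bound of 6.61. Lpar6, a lysophosphatidic acid receptor, had -1.10 with UV and 1.05 untreated, from 2.55 and 15.03 FPKM in p53KO and 5.28 and 7.002 FPKM in p53CryKO cells. Ribc1 had -1.06 with UV and 1.93 untreated. Snurf had -2.57 with UV and 2.53 untreated, with an error bound of 8.00, and FTX_5 had -1.79 and 2.85, with an error bound of 12.5. For Agt and Lpar6 the UV ratio exceeded the error bound (0.585 and 0.766), and for the other 5 it did not.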

How the results depend on the processing

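No paired analysis was possible because the tables hold 1 pooled value per group; for the same reason no replicate could be left out. The 3 scalings, the requirement of values above 0 in all 4 groups and the removal of the length trend left every count within 1.5 times its value in the report, and moved no list, chromosome or named gene by 1.5-fold or more except where those settings gave no value. The counts of genes higher, lower and past 2-fold the same way with and without UV were 887, 1100 and 1026. They became 486, 512 and 517 at 5 FPKM or more, 527, 587 and 549 with a pseudocount of 1, 1886, 2457 and 2424 at 1.5-fold, and 213, 250 and 306 at 4-fold. Without an FPKM minimum 1676 genes were lower. With a pseudocount the median log2 ratio of the clock activators was -1.32 and that of the imprinted genes -1.46, since low values count for less; it moved 57 of 175 named genes by 1.5-fold or more, with no value past 2-fold changing sign. Leaving Cry1 and Cry2 out of the clock repressors was chosen after seeing the data. At 5 FPKM or more the keratin list had 2.27 and the Y-linked list 1.24, over fewer genes. The medians of 7 of 44 lists and 7 of 21 chromosomes changed sign under a scaling. Depth is unknown, so how far counting error limits the low genes cannot be given.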
